A study of Mus musculus with 2 samples.

Results

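The ciliary axoneme genes described here are the mouse genes whose symbols begin with Cfap, Dnah, Dnaic or Rsph, together with Dnali1, that held at least 20 unique molecular identifiers (UMIs, each 1 captured transcript molecule) over both deposited matrices. Of 27998 genes in the files, 52 matched by symbol and 48 passed that threshold. They comprise 24 Cfap genes, 10 genes of the inner dynein arm, 6 of the outer dynein arm, 7 radial spoke genes and Dnah2os, a transcript antisense to Dnah2. The members just inside the threshold were Cfap99 with 25 UMIs, Dnah2os with 30 and Cfap221 with 80, and those just outside were Dnah17 with 14 UMIs and Dnah14 and Cfap73 with 12 each, while Rsph6a held 0. The members were thus chosen by symbol and selected on their summed UMIs over both libraries, so a member can pass it through any cell class.

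The data came from whole lungs of male C57Bl/6J mice aged 3 months, killed 14 days after 100 µg of TiO2 (titanium dioxide, a particle) or crocidolite asbestos (a fibre that scars the lung) was given into the trachea. There were 2 libraries, 1 mouse each, labelled control and fibrosis. The labels name both particles for both mice and do not tie a particle to a mouse, so the libraries are named by those 2 words. Cells were dispersed with dispase, freed of red cells and captured in droplets for sequencing of transcript 3′ ends (10x Genomics, V2 chemistry). With 1 library per group no difference below has a replicate check and no test was made, and every interval is a 95% interval that covers counting error only.

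The axoneme is the microtubule core of a motile cilium. Dynein motors fixed to its outer doublets in an outer and an inner row walk along the neighbouring doublet and bend the cilium, radial spokes pass signals between the doublets and the central pair of microtubules, and many Cfap proteins line the doublets, link the motors to them or build the central apparatus. In the airway only multiciliated cells carry motile cilia, whose beat moves mucus out of the lung. Loss of Dnah5, Dnaic1 or Rsph4a in people causes primary ciliary dyskinesia.

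Ciliated cells were taken as cells with at least 1 UMI of Foxj1, the transcription factor of motile cilia, and at least 1 of Ccdc153 or Tmem212. No gate gene is a member. The deposited matrices held 8280 control and 7173 fibrosis cells with 36632591 and 38090308 UMIs, of which 7510 and 6559 cells were kept after filters on genes, mitochondrial UMIs and doublets. The gate took 121 control cells (1.61% of kept cells, 1.34 to 1.92) and 144 fibrosis cells (2.195%, 1.85 to 2.58), with medians of 7025 and 10460.5 UMIs. At least 3 of 7 further ciliated markers (Sec14l3, Tppp3, Dynlrb2, 1110017D15Rik, Fam183b, Tekt1 and Tekt4) were detected in 120 of the 121 and in 140 of the 144. The libraries shared 89 barcodes, 2 of them among the control ciliated cells and 0 among those of fibrosis.

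Both sides of the gate were checked with the members, which the gate did not use. Cells with Foxj1 and neither partner numbered 45 and 77 and held 157 and 122 CPM of the members (UMIs scaled to a class total of 1000000), near the level of most non-ciliated classes given below. Cells with Ccdc153 and Tmem212 and no Foxj1 numbered 7 and 2 and held 3064 and 5045 CPM, so the Foxj1 requirement left out a few cells with ciliated levels. Another 20 cells of each library that passed the gate had been removed for over 10% mitochondrial UMIs, and these held 8056 and 8324 CPM.

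Promoters of the members are shown because RFX factors and Foxj1 are known to drive many ciliary genes, and RFX proteins bind a box that contains the hexamer GTTGCC. Promoter windows from RefSeq (GRCm38.p6, 250 bases before to 50 after the start) were found for 39 of the 48 members by symbol. The hexamer, read on either strand as GTTGCC or GGCAAC, stood in 13 of the 39 (33.3%), against 14.1% of the 27025 genes with a window. Among the 13 are Dnah7a, Dnah7b and Dnah7c, copies that share part of their transcript ends. They held 1 hexamer each, 200, 163 and 219 bases before the start, and may not be separate cases. The forkhead core, GTAAACA or TGTTTAC, stood in 2 of the 39 (5.13%), against 4.05% of all genes. Cfap20 was the only member with both, 94 and 182 bases before the start, and no hexamer overlapped a forkhead core. Stretches that end at or near the start are printed 5′ to 3′ on the gene's strand, with the hexamer in capitals. They are from Cfap161 (chr7:83794871-83794939, minus strand), Cfap44 (chr16:44394699-44394798, plus strand), Dnaic2 (chr11:114727319-114727417, plus strand), Dnah10 (chr5:124724985-124725084, plus strand) and Cfap20 (chr8:95434870-95434969, minus strand).
Cfap161: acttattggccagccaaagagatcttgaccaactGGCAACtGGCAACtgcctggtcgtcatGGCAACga
Cfap44: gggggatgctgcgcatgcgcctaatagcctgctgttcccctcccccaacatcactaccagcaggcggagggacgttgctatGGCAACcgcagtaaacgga
Dnaic2: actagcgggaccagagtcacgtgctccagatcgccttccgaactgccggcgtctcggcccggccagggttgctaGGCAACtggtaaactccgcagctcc
Dnah10: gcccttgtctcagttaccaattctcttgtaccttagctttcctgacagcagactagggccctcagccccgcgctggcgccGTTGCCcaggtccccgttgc
Cfap20: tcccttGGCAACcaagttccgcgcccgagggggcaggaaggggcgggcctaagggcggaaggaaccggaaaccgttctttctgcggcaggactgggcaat
Cfap161 held 3 hexamers, 66, 59 and 39 bases before its start, and the other 4 stretches 1 each. The hexamer was not limited to members found mainly in ciliated cells, since it stood in 11 of 34 of those with at least 50% of their UMIs there and in 2 of the 5 others. A match of letters is a description and not a binding site, and the members without one, Dnah5 among them, lack only these letters in this window.

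The first question was where the transcripts lie. Ciliated cells held 67.2% of the members' control UMIs (66.3 to 68.0) and 71.6% of their fibrosis UMIs (70.9 to 72.3), although they made up 1.61% and 2.195% of cells. Of the 48 members, 41 had at least 50% of their UMIs in ciliated cells over both libraries, and 36 at least 80%, against 5.05% and 2.56% of all 15378 genes with at least 20 UMIs. The median member had 91.8% of its UMIs there. All 10 inner arm genes passed 50%, as did 21 of 24 Cfap genes, 5 of 6 outer arm genes and 5 of 7 radial spoke genes. The genes were proposed as a ciliary module, so these counts describe the list and are no test of it.

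**Figure D1:**
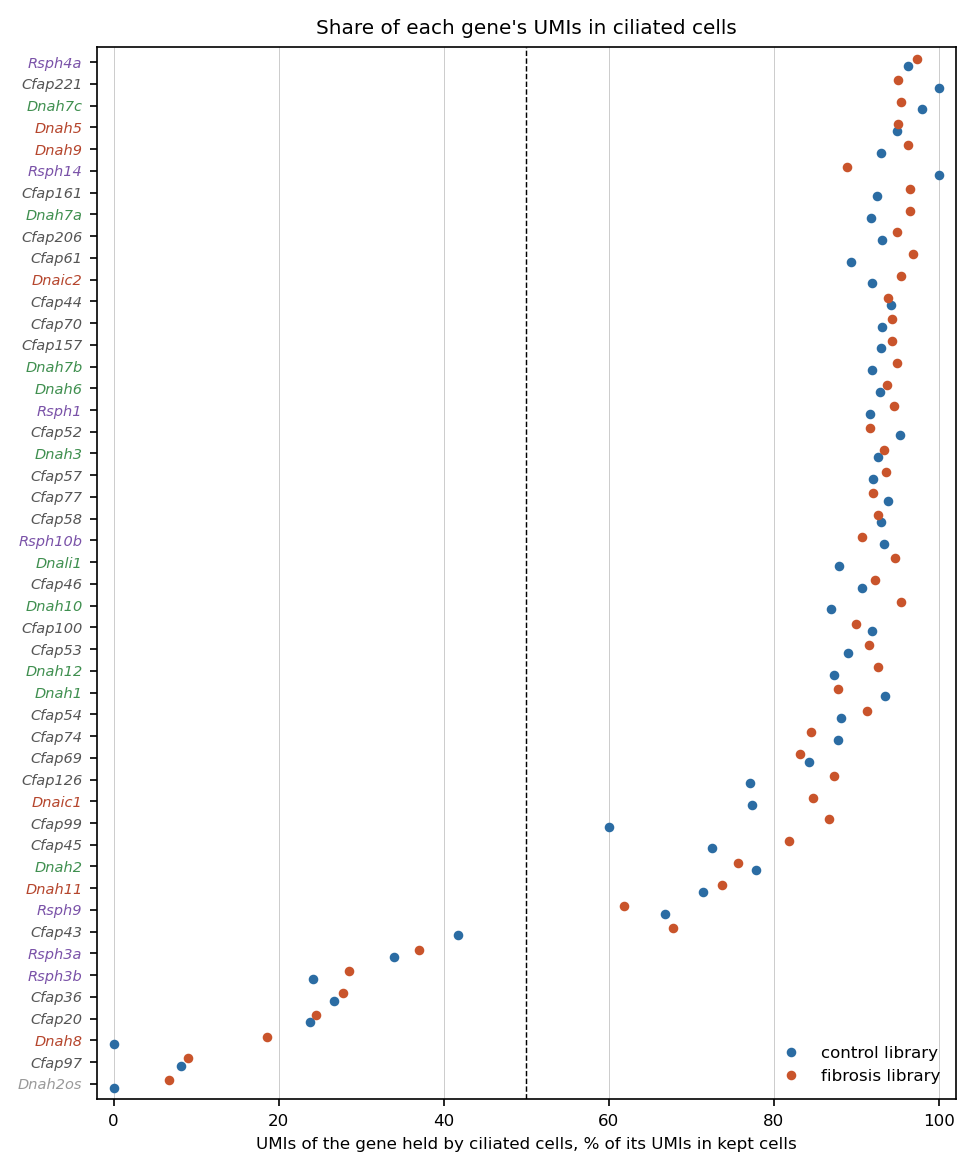
Share of each member's UMIs held by ciliated cells (x axis, percent of its UMIs in kept cells) for the control (blue) and fibrosis (orange) libraries, 1 point per library, with the dashed line at 50% and symbols coloured by role (grey Cfap, green inner arm, red outer arm, purple radial spoke, light grey antisense). Most members lie above 80% in both libraries, and 7 lie under 50% over the sum of both libraries.

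The 7 members under 50% fell into kinds that differ in where the rest of their UMIs lie. Cfap20, a protein of the doublet inner junction, had 24.2% in ciliated cells, Cfap36 27.4% and Cfap97 8.59%, and these 3 were found in nearly all classes. Cfap20 measured 179 CPM in control and 159 CPM in fibrosis ciliated cells, and 67.3 and 62.3 CPM in AT2 cells (alveolar type 2 cells, which make surfactant). Cfap97 was no higher in ciliated than in AT2 cells, at 28.1 and 23.2 CPM against 29.2 and 24.2 CPM. Cfap36 measured 134 and 138 CPM in ciliated cells, and its highest level elsewhere was in AT1 cells (the thin gas exchange cells), at 120 CPM (65.6 to 201, 14 UMIs) and 84.0 CPM (47.0 to 139, 15 UMIs). All 3 genes were spread in this way in both libraries.

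The other 4 had at most 37.2 CPM in ciliated cells. Dnah2os held 26 UMIs in kept cells, of which 3.85% lay in ciliated cells and 6 and 9 lay in endothelial cells (9.86 and 14.5 CPM), so this antisense transcript did not follow its host gene Dnah2, at 37.8 and 34.8 CPM in ciliated cells. Dnah2os and Dnah2 overlap by 168 exonic bases on opposite strands. Dnah8, the paralogue of Dnah5 known from sperm tails, had 10.5% in ciliated cells, with 23 and 21 UMIs in T cells (13.6 and 12.7 CPM) and 8 and 9 UMIs in endothelial cells (13.2 and 14.5 CPM). Rsph3a and Rsph3b, copies of a spoke stalk gene, had 36.1% and 27.7% in ciliated cells. They shared 87.6% of the 50-base windows in their last 1000 transcript bases, so the split of reads between them is uncertain.

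Summed over the members, 15 other gated classes with at least 20 cells in each library held far less than ciliated cells. Ciliated cells measured 4233 CPM in control (4139 to 4327) and 4275 CPM in fibrosis (4194 to 4356). The other classes ranged from 84.4 CPM (T cells) to 356 CPM (club cells) in control, with a median of 107, and from 89.9 CPM (classical monocytes) to 239 CPM (endothelial cells) in fibrosis, with a median of 113. Club cells, the secretory cells of the airway, were the class with the highest level outside ciliated cells for 25 of the 48 members when both libraries were summed, though 13 of these had 0 UMIs in fibrosis club cells and 5 rested on 1 UMI. The club gate allowed no Foxj1 UMI. With cells thinned to one depth, as described below, the median club cell held 0 members in both libraries. No member was seen in 67.6% of control and 79.1% of fibrosis club cells. The most in any club cell was 10 members in control and 6 in fibrosis, so the members were unevenly spread over the class. In club cells the libraries differed, at 356 CPM (304 to 416) in 34 control cells and 170 CPM (135 to 212) in 43 fibrosis cells. Markers of ciliated cells moved with it: 6 of them (Ccdc153, Tmem212, 1110017D15Rik, Fam183b, Tekt1 and Tekt4) summed to 186 CPM in control and 25.9 CPM in fibrosis club cells, and their part in the difference was not tested. The same 6 markers were at a median of 5.53 and 11.2 CPM over the 15 classes, against 2859 and 2439 CPM in ciliated cells.

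**Figure D2:**
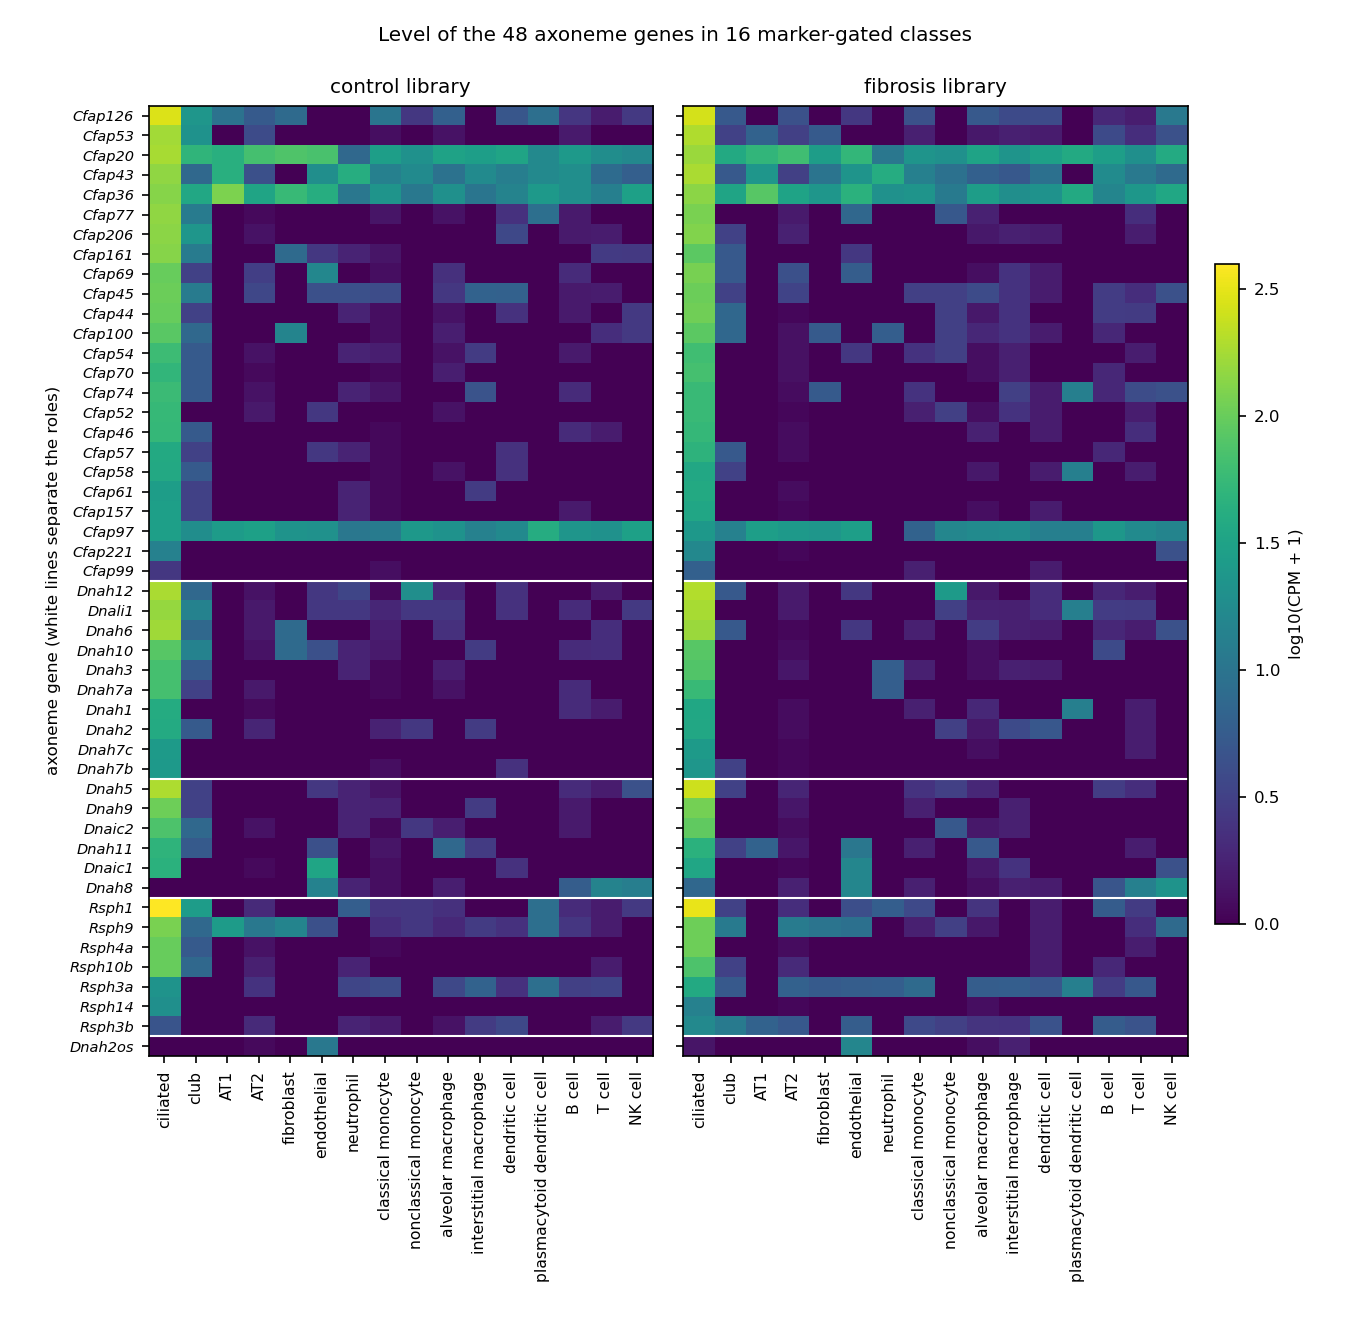
Level of each of the 48 members (rows, ordered by role and level) in 16 marker-gated classes (columns) in the control and fibrosis libraries, as log10(CPM + 1) of UMIs summed over the class. The ciliated column stands apart for most rows, Cfap20, Cfap36 and Cfap97 are coloured across nearly all classes, and Dnah8 and Dnah2os are dark in ciliated cells.

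Some members that lay mainly in ciliated cells also had a level in another class well above that of the ciliated markers there. These were picked after their values were seen. Cfap43, which tethers an inner arm motor to the doublet, was measured in neutrophils at 40.2 CPM in control (49 UMIs in 589 cells, 29.8 to 53.2) and 39.4 CPM in fibrosis (8 UMIs in 72 cells, 17.03 to 77.7). That was 27.4% and 21.5% of its ciliated level, whereas the 6 ciliated markers stood in neutrophils at 0.287% and 0.202% of theirs. Cfap43 was present in B cells too, at 18.2 and 17.1 CPM, and only 55.0% of its UMIs lay in ciliated cells. Dnaic1, an outer arm intermediate chain, measured 32.9 CPM in control (20 UMIs, 20.1 to 50.8) and 14.5 CPM in fibrosis endothelial cells (9 UMIs, 6.64 to 27.6). Those levels were 74.2% and 43.7% of its level over all ciliated cells, beside 0.403% and 0.463% for the markers. Dnaic1 measured 92.7 and 72.3 CPM in ciliated cells with under 10% of UMIs from Scgb1a1, and 28.6 and 22.8 CPM in the others. Dnaic1 shares 15 exonic bases with Enho on the opposite strand.

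Other signals of this kind were smaller as a share of the gene's ciliated level. Dnah12, an inner arm heavy chain, measured 18.2 and 25.3 CPM in nonclassical monocytes (11 and 12 UMIs), 9.81% and 12.7% of its ciliated level beside 0.348% and 0.691% for the markers. Dnah11 measured 6.55 and 4.33 CPM in alveolar macrophages (20 and 18 UMIs), and it overlaps Cdca7l on the opposite strand by 642 exonic bases. Rsph9, a spoke head gene, measured 10.0 and 11.1 CPM in AT2 cells (58 and 104 UMIs). Each of these appeared in both libraries at levels whose intervals overlap. By contrast Dnah5 and Rsph1 in AT2 cells were at 0 and 0.852 CPM, and at 1.04 and 1.17 CPM, at most 0.363% of their ciliated level, near the 0.193% and 0.314% of the markers.

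To compare detection at one depth, each cell was thinned to 1000 UMIs drawn at random. Ciliated cells then showed a median of 6 members per cell in control and 5.5 in fibrosis, and unthinned 25 and 27. The median member was detected in 9.92% of control and 9.38% of fibrosis ciliated cells (unthinned 56.6% and 58.7%), and the most often detected was Cfap126 (44.6% and 36.1%). B cells, which lack motile cilia, served as the reference. No member exceeded 2.64% of control or 2.93% of fibrosis B cells, and both of those were Cfap20. The interval in ciliated cells lay wholly above that in B cells for 43 members in control and 38 in fibrosis. The share of all genes that meet this rule was not counted, so these counts describe the list only. By a limit of 3 counts, 0 detected cells among the 871 and 375 B cells allows a share of detected cells at this depth of up to 0.344% and 0.8%, and among ciliated cells of up to 2.48% and 2.08%. The exact intervals used for the comparison are wider, reaching 0.423% and 0.979% in B cells and 3.003% and 2.53% in ciliated cells.

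The gated ciliated cells were of 2 kinds in both libraries, separated by Scgb1a1, the secretoglobin that club cells secrete. The split at 10% of a cell's UMIs was chosen after the values were seen. Under 10% lay 75 control cells and 78 fibrosis cells, with median Scgb1a1 shares of 0.819% and 0.495% and median totals of 5485 and 5940.5 UMIs. At or above 10% lay 46 control cells (38.0% of ciliated cells, 29.3 to 47.3) and 66 fibrosis cells (45.8%, 37.5 to 54.3), with median Scgb1a1 shares of 44.9% and 33.2% and medians of 27960 and 27714 UMIs. Other club markers were higher in the Scgb1a1-rich cells. Scgb3a2 measured 7925 and 5630 CPM there against 86.1 and 424 CPM, and Cyp2f2 5899.5 and 5364 CPM against 1397 and 1928 CPM. The gate genes were lower there, Foxj1 at 323 and 454 against 956 and 1029 CPM. Ccdc153 stood at 492 and 492 against 2260 and 2080 CPM, and Tmem212 at 279 and 273 against 1280 and 1232 CPM. Of the Scgb1a1-rich cells, 20 and 37 also passed the gate of another class, against 10 and 6 of the others. Doublets had been removed by score, and whether the Scgb1a1-rich cells are 1 cell or several was not tested.

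The median of axoneme transcripts per cell was close in both kinds in control and higher in the rich kind in fibrosis. The median cell held 52 member UMIs in control and 56 in fibrosis when low in Scgb1a1, and 54.5 and 71 when rich in it. The upper quartiles were 70 and 77.75 in the low kind and 104 and 109 in the rich kind. As a share of the cell's UMIs the difference was large, at 9727 CPM (9442 to 10019) and 9476 CPM (9215 to 9743) in the low kind and 2452 CPM (2370 to 2535) and 2886 CPM (2812 to 2962) in the rich kind. All 44 members with at least 20 UMIs in each kind had a higher CPM in cells low in Scgb1a1 in both libraries, with median ratios of 3.59 and 3.08. The split itself lowers the CPM of other genes in the rich kind. Scgb1a1 made up 43.8% and 34.1% of all UMIs there, against 0.901% and 1.22% in the low kind. How much of the difference comes from that share was not worked out. The same count over all genes was not made, so whether the difference is particular to the members was not tested. At 1000 UMIs the median was 8 members per cell in the low kind and 2 in the rich kind, in both libraries. A member's level over all ciliated cells therefore depends on the mix of kinds, and comparisons between the libraries are given by kind for the sums and for several members, and plotted by kind for 44.

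**Figure D3:**
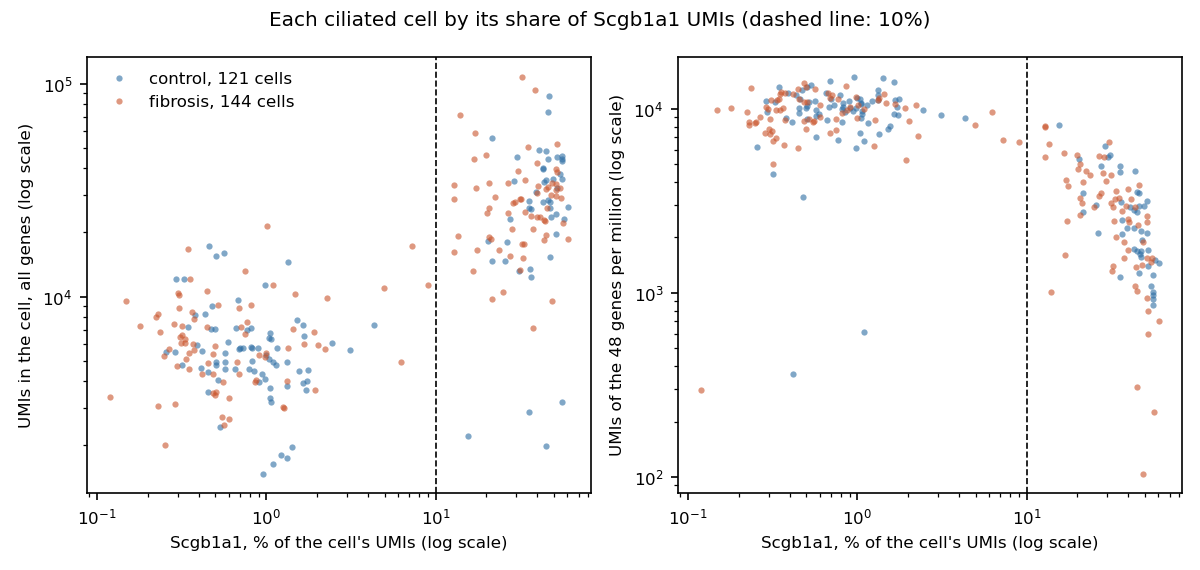
Each point is 1 ciliated cell of the control (blue, 121 cells) or fibrosis (orange, 144 cells) library, with the share of its UMIs from Scgb1a1 on the x axis (percent, log scale) and, on the y axes (log scale), its UMIs in all genes (left) and its member UMIs as CPM (right). Few cells lie near the dashed line at 10%, with 75 and 78 cells to its left and 46 and 66 to its right, which are deeper and hold a smaller share of member UMIs.

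The next question was whether the members' levels in ciliated cells differed between the libraries. The summed level did not differ beyond counting error, with a log2 ratio of fibrosis to control of 0.014 (-0.028 to 0.056). Of the 45 members with at least 20 UMIs in ciliated cells, 24 were higher and 21 lower in fibrosis, and the median log2 ratio was 0.011. The median of all 10170 genes that passed the same filter was 0.110, with quartiles of -0.125 and 0.365, and 62.4% of them were higher. Set against that median, 15 members stood above it and 30 below, and the summed log2 ratio became -0.096 (-0.138 to -0.053). By kind of cell the members and all genes lay closer. In cells low in Scgb1a1 the median of all genes was -0.016 and the summed member ratio -0.038 (-0.096 to 0.021), and in Scgb1a1-rich cells they were 0.216 and 0.236 (0.174 to 0.297).

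At least 2-fold apart was 1 of the 45 members, Rsph3b, which was higher in fibrosis. Of all genes, 5.58% were at least 2-fold apart, 4.35% higher and 1.23% lower, and 1 of 45 members is no more than that. Rsph3b (ENSMUSG00000023806, chr17:6904413-6948682, minus strand of GRCm38) held 7 UMIs in 6 control cells and 39 UMIs in 36 fibrosis cells, or 3.78 and 15.6 CPM, a log2 ratio of 1.97 (0.87 to 3.45). Its near copy Rsph3a measured 20.5 and 37.2 CPM, a log2 ratio of 0.85 (0.30 to 1.44). Both genes were higher in fibrosis outside ciliated cells as well, with log2 ratios of 2.08 and 1.04 over all other kept cells, and in AT2 cells Rsph3b stood at 1.04 and 4.26 CPM. The difference of this pair was thus not limited to cells with cilia, and reads of the copies cannot be told apart over most of the counted end.

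**Figure D4:**
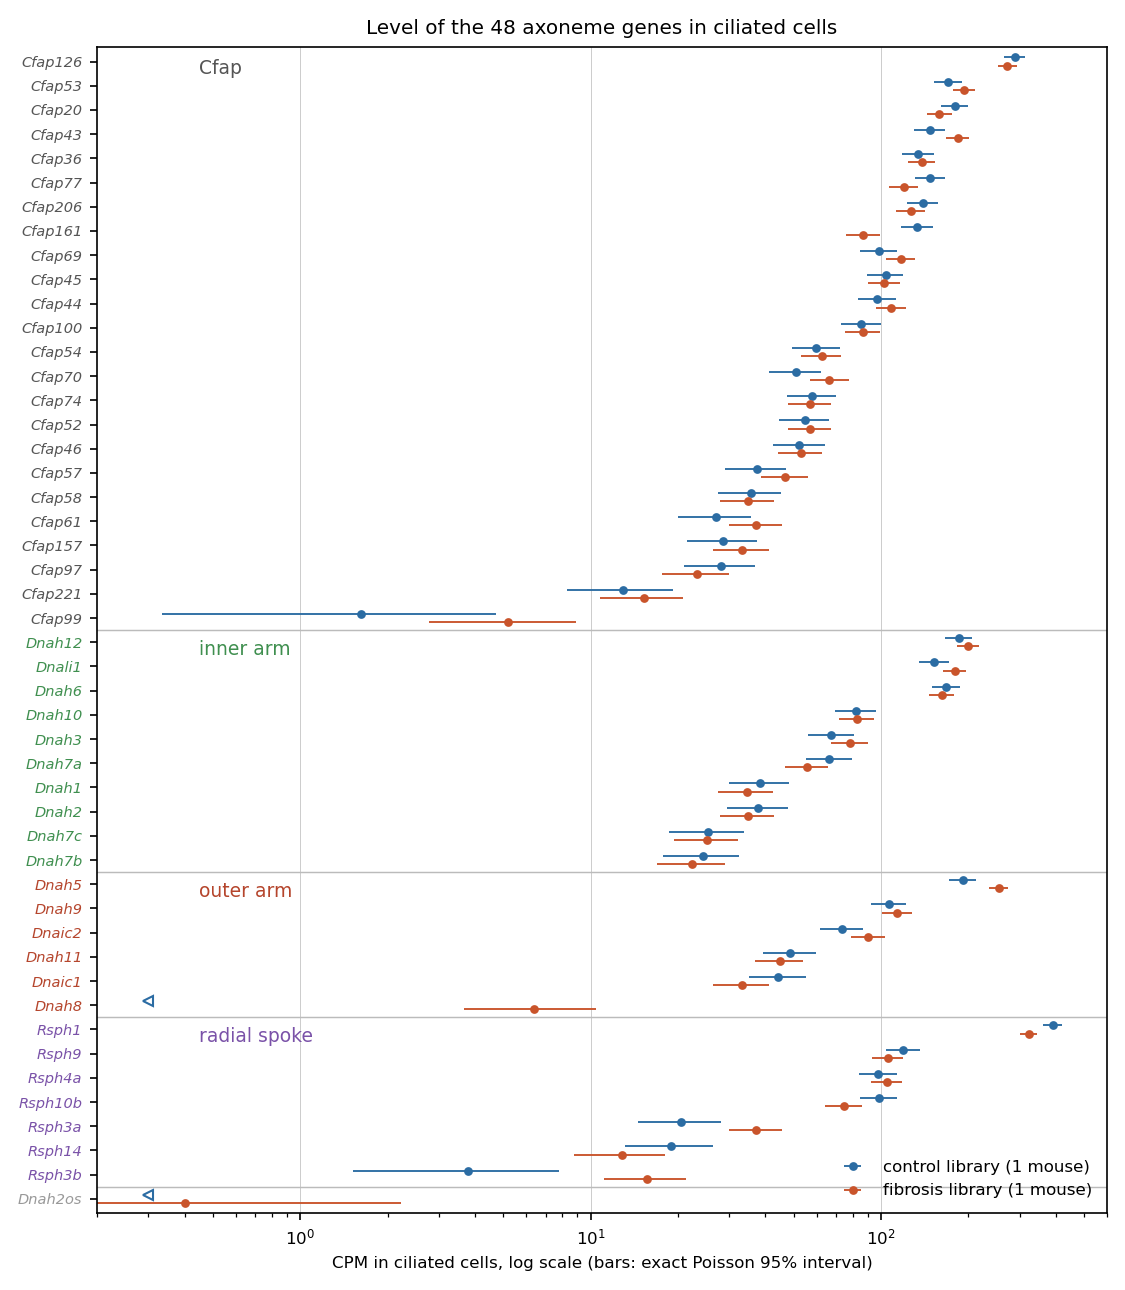
CPM of each of the 48 members in ciliated cells (x axis, log scale) in the control (blue) and fibrosis (orange) libraries, 1 mouse each, with exact Poisson 95% intervals, in order of role and level. Open triangles at the left mark 0 UMIs, and Rsph1 leads with 391 and 322 CPM.

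Among the outer arm genes with enough UMIs, Dnah5 had an interval above 0 in both kinds of ciliated cell. Dnah5 (ENSMUSG00000022262, chr15:28203752-28472052, plus strand), an outer arm heavy chain often mutated in ciliary dyskinesia, measured 191 CPM in control (354 UMIs in 98 of 121 cells) and 254 CPM in fibrosis (634 UMIs in 133 of 144 cells). Its log2 ratio was 0.41 (0.22 to 0.60) in all ciliated cells, 0.46 (0.20 to 0.73) in cells low in Scgb1a1 and 0.52 (0.25 to 0.80) in Scgb1a1-rich cells, above the median of all genes in each case. Of the 44 members with at least 20 UMIs in each kind, it was the only one whose interval lay above the all-gene median in both. The share of all genes that do so was not counted. Dnah9, the partner of Dnah5, measured 106 and 114 CPM, a log2 ratio of 0.09 (-0.17 to 0.37). Dnah11, which takes the place of Dnah9 near the base of the cilium, measured 48.6 and 44.9 CPM, a log2 ratio of -0.12 (-0.53 to 0.30), with 0.43 (-0.20 to 1.09) in the low kind and -0.44 (-1.004 to 0.12) in the rich kind.

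The intermediate chains, which hold the outer arm motors on their base, had ratios on either side of 0, with intervals that held 0. Dnaic2 measured 73.5 and 90.5 CPM, a log2 ratio of 0.30 (-0.01 to 0.62), and Dnaic1 measured 44.3 and 33.2 CPM, a ratio of -0.41 (-0.87 to 0.04). Dnah8 had 0 UMIs in 121 control ciliated cells and 16 UMIs in 14 of 144 fibrosis cells, at most 2 in 1 cell. Its 6.41 CPM was at least 3.95-fold higher than the 1.62 CPM that a limit of 3 counts over the control class allows. That bound leaves out the counting error of the 16 UMIs, and the exact interval of the log2 ratio began at 1.52. With under 20 UMIs Dnah8 was not among the members compared by fold. Summed over the 6 outer arm genes, the level was 464 CPM in control (434 to 496) and 543 CPM in fibrosis (514 to 572), a log2 ratio of 0.23 (0.10 to 0.35). Relative to the median of all genes that ratio was 0.12 (-0.01 to 0.24), and 0.33 (0.15 to 0.51) and 0.07 (-0.11 to 0.25) in the low and rich kinds. Dnah5 supplied 634 of the 1355 fibrosis UMIs in this sum.

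Over all ciliated cells, the 10 inner arm genes summed to 848 CPM in control and 874 CPM in fibrosis, a log2 ratio of 0.04 (-0.05 to 0.14), and 4 were higher and 6 lower. By kind the sum's ratio was -0.09 (-0.22 to 0.05) in cells low in Scgb1a1 and 0.32 (0.18 to 0.45) in the rich kind. Relative to the median of all genes in each kind it was -0.07 (-0.20 to 0.06) and 0.10 (-0.03 to 0.24). Dnali1, a light intermediate chain of the inner arm, had the highest ratio, with 152 and 179 CPM and a log2 ratio of 0.24 (0.02 to 0.46). That ratio came from Scgb1a1-rich cells (0.63, 0.30 to 0.97), and in the low kind it was 0.07 (-0.23 to 0.37). Dnah12 measured 186 and 199 CPM and Dnah6 167 and 162 CPM, the highest of the single-headed heavy chains. Dnah3 measured 67.5 and 78.1 CPM and overlaps Lyrm1 on the opposite strand by 1190 exonic bases. Dnah7a measured 66.4 and 55.7 CPM, and it shares 24.2% and 38.5% of the end windows with Dnah7b and Dnah7c, so counts of these 3 are uncertain. Dnah1 measured 38.4 and 34.4 CPM. Dnah2 and Dnah10, which pair as the double-headed inner arm motor, measured 37.8 and 34.8 CPM and 82.1 and 82.5 CPM. The intervals of the other 9 held 0.

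The radial spoke genes summed to a lower level in fibrosis over all ciliated cells, at 749 CPM in control (710 to 790) and 672 CPM in fibrosis (641 to 705), a log2 ratio of -0.16 (-0.26 to -0.05). The ratio was -0.23 (-0.37 to -0.08) in cells low in Scgb1a1 and 0.13 (-0.03 to 0.28) in Scgb1a1-rich cells. Relative to the median of all genes in each kind it was below 0 in both, at -0.21 (-0.35 to -0.07) and -0.09 (-0.24 to 0.07). Rsph1 alone supplied 723 of the 1387 control and 805 of the 1679 fibrosis UMIs in the sum over all ciliated cells. Of the 7 genes, 3 were higher and 4 lower in fibrosis, so the lower sum does not describe each spoke gene. Rsph1 (ENSMUSG00000024033, chr17:31255019-31277383, minus strand), a spoke head protein and the member with the highest ciliated level, measured 391 CPM (723 UMIs) and 322 CPM (805 UMIs), a ratio of -0.28 (-0.42 to -0.13). Rsph10b measured 98.3 and 74.5 CPM, a ratio of -0.40 (-0.70 to -0.10). Both lay lower in cells low in Scgb1a1, at -0.39 (-0.58 to -0.19) and -0.69 (-1.13 to -0.25), and neither did in the rich kind, at 0.09 (-0.13 to 0.32) and 0.04 (-0.39 to 0.49). Relative to the median of all genes in the rich kind, Rsph1 and Rsph10b stood at -0.12 (-0.35 to 0.11) and -0.17 (-0.61 to 0.27). The head proteins Rsph4a and Rsph9 measured 97.8 and 105 CPM and 119 and 105 CPM, with intervals that held 0. Spoke genes were therefore not of one direction, and Rsph10b also shares 325 exonic bases with Gm42421 on its own strand.

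Among the Cfap genes, the doublet lining proteins included the member with the lowest ratio. Cfap161 (ENSMUSG00000011154, chr7:83774101-83794880, minus strand) measured 133 CPM in control (247 UMIs in 95 cells) and 86.9 CPM in fibrosis (217 UMIs in 95 cells), a log2 ratio of -0.62 (-0.89 to -0.35). It lay lower in both kinds of ciliated cell, at -0.40 (-0.80 to -0.004) and -0.68 (-1.05 to -0.31), although relative to the all-gene median the interval in the low kind reached 0.01. Cfap77 measured 148 and 120 CPM, a ratio of -0.31 (-0.55 to -0.06), which was -0.59 in the low kind and 0.13 in the rich kind. Relative to the median of all genes in each kind, Cfap77 stood at -0.58 (-0.93 to -0.23) and -0.09 (-0.43 to 0.27). Cfap53 measured 171 and 193 CPM, Cfap45 104 and 103 CPM and Cfap52 54.6 and 56.9 CPM, and all 3 are lining proteins with intervals that held 0. Ratios of the doublet lining members therefore differed in sign, though none had an interval above 0 over all ciliated cells. Cfap20 and Cfap36, given above, had ratios of -0.17 and 0.04.

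Of 5 Cfap genes of the motors and their ties, Cfap43 and Cfap70 had intervals above 0. Cfap43 measured 147 and 183 CPM, a log2 ratio of 0.32 (0.10 to 0.54), with 0.36 (0.04 to 0.68) and 0.41 (0.11 to 0.72) in the low and rich kinds. Its partner Cfap44 measured 97.2 and 109 CPM, a ratio of 0.16 (-0.12 to 0.44), which was -0.01 in the low kind and 0.49 in the rich kind. Cfap70, which sits at the outer arm, measured 50.8 and 66.5 CPM, a ratio of 0.39 (0.02 to 0.77). Cfap57 measured 37.3 and 46.9 CPM, and Cfap100, which regulates inner arms, 85.4 and 86.5 CPM, with intervals that held 0. Of the 44 members with at least 20 UMIs in each kind, Cfap43 and Dnah5 had intervals above 0 in both. For Cfap43 the rich kind did not clear the median of all genes there. The share of all genes with intervals above 0 in both kinds was not counted.

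For the remaining Cfap genes the interval over all ciliated cells held 0. Cfap126, also called Flattop and known for placing basal bodies, measured 288 and 272 CPM and led the Cfap genes. Relative to the all-gene median its ratio was -0.20 (-0.36 to -0.03), and that of Cfap206 -0.25 (-0.49 to -0.01). In the central apparatus, Cfap69 measured 98.3 and 117 CPM, Cfap54 59.97 and 62.5 CPM, Cfap74 57.8 and 56.9 CPM, and Cfap46 52.4 and 52.9 CPM. Cfap69 differed by kind, with 0.50 (0.10 to 0.91) in cells low in Scgb1a1 and 0.15 (-0.22 to 0.54) in the rich kind. Cfap221, of the same apparatus and near the threshold, measured 12.97 and 15.2 CPM. Cfap206, a protein of the spoke base, measured 139 and 127 CPM, Cfap58 35.7 and 34.8 CPM, and Cfap97 stood at -0.28 (-0.84 to 0.29) on the log2 scale. Cfap99 held 3 and 13 UMIs, too few for the comparison. Summed over 24 Cfap genes, the level was 2172 CPM in control and 2185 CPM in fibrosis, a log2 ratio of 0.01 (-0.05 to 0.07). That ratio was -0.03 (-0.11 to 0.05) in the low kind and 0.22 (0.14 to 0.31) in the rich kind. Relative to the median of all genes in each kind it was -0.02 (-0.10 to 0.07) and 0.01 (-0.08 to 0.09).

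Over all 45 members, the interval of the ratio lay above 0 for 6 (Cfap43, Cfap70, Dnah5, Dnali1, Rsph3a and Rsph3b), below 0 for 4 (Cfap161, Cfap77, Rsph1 and Rsph10b) and held 0 for 35. Of all 10170 genes, 11.8% had intervals above 0 and 4.37% below. Against the all-gene median of 0.110 the balance turned, with 3 members above it (Dnah5, Rsph3a and Rsph3b) and 10 below, beside 7% and 7.88% of all genes. Of the 44 members with enough UMIs in both kinds of ciliated cell, 16 were higher in fibrosis in both, 5 lower in both and 23 in opposite directions. The medians of all genes also lay on either side of 0, at -0.016 in the low kind and 0.216 in the rich kind. The same counts over all genes were not made, so those of the members describe the list only. At least 2-fold apart were 1 of 45 members in the low kind and 2 of 44 in the rich kind, where 6.11% and 7.47% of all genes were. The members not described singly are Cfap61, Cfap157, Dnah7b, Dnah7c and Rsph14, with levels of 12.8 to 37.2 CPM and intervals that held 0.

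**Figure D5:**
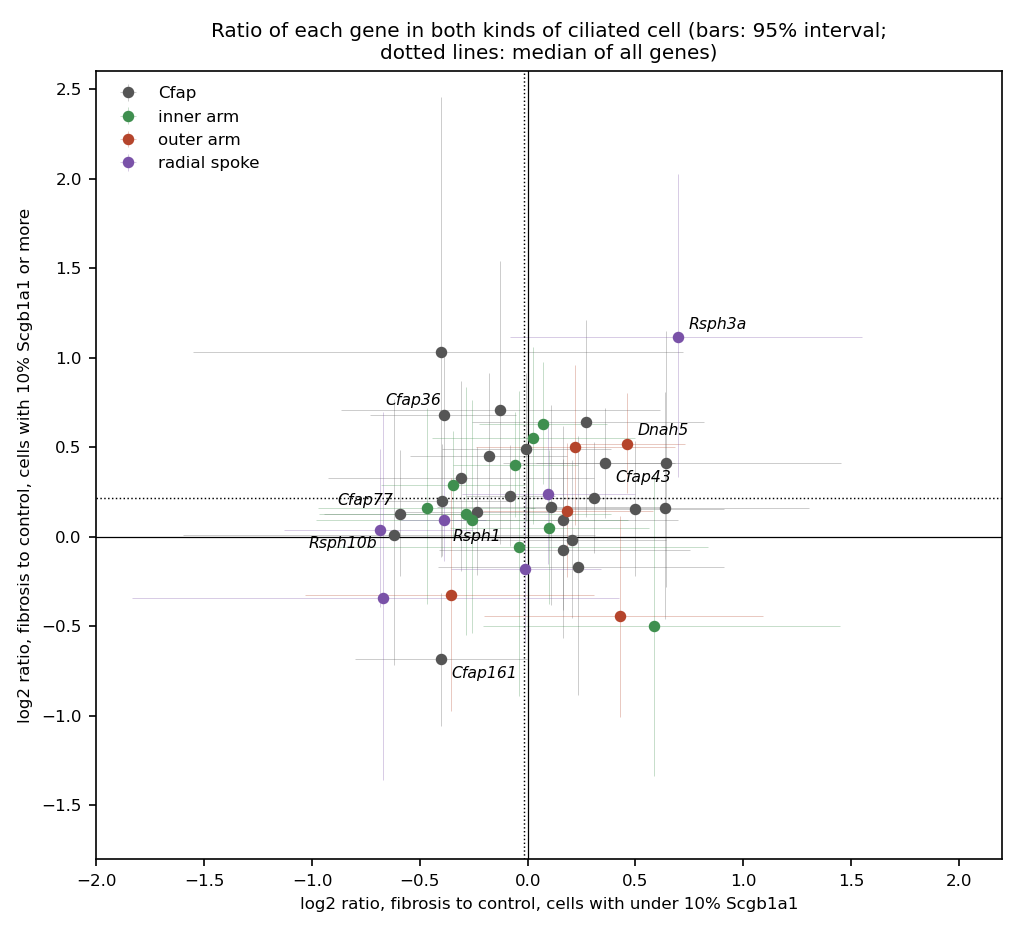
Log2 ratio of fibrosis to control for the 44 members with at least 20 UMIs in each kind of ciliated cell, in cells with under 10% Scgb1a1 (x axis) and with 10% or more (y axis), coloured by role, with 95% intervals of counting error and dotted lines at the medians of all genes (-0.016 and 0.216). Dnah5 lies to the upper right in both kinds and Cfap161 to the lower left. Rsph1, Rsph10b and Cfap77 lie left of 0 on the x axis, and above 0 but below the dotted median on the y axis.

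Levels of members can be set beside each other only with care, since UMIs were counted at transcript 3′ ends and length was not used to scale them. The 13 dynein heavy chains, whose longest transcripts have a median of 12872 bases, had a median of 66.4 and 55.7 CPM in ciliated cells. The other 34 coding members, with a median of 2872.5 bases, had 79.4 and 80.5 CPM. The long motor transcripts thus gave counts of the same order as the short ones, and these values are not per length.

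Other genes of the motile cilium, none of them a member, were compared by the same fold rule. Of 73 in the files, 67 had at least 20 UMIs in ciliated cells, 29 were higher and 38 lower in fibrosis, with a median log2 ratio of -0.084. With 0.5 UMI added to each sum 0 were called at least 2-fold apart, beside 5.58% of all genes. The 8 genes of the nexin-dynein regulatory complex and its ruler, which space and couple the motors, had a median of -0.24, with 6 lower. Drc1 measured 131 and 102.1 CPM (-0.36, -0.62 to -0.10), while the ruler genes Ccdc39 and Ccdc40 measured 120 and 142 CPM and 94.5 and 113 CPM. All 3 tubulins with enough UMIs were lower, Tuba1a at 1030 and 760 CPM (-0.44, -0.53 to -0.35). Docking complex genes, which seat the outer arm, had a median of -0.16, with 2 higher and 2 lower, from -0.48 (Ccdc151) to 0.13 (Ccdc114).

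Of 7 genes that turn on the ciliary programme and had enough UMIs, 6 were higher in fibrosis, beside 62.4% of all genes. Foxj1, 1 of the 6, measured 478 and 575 CPM, but it is a gate gene and its level cannot be read as a result. Rfx3, an RFX factor, measured 42.1 and 66.9 CPM, a log2 ratio of 0.66 (0.27 to 1.07), and Myb, an early factor of multiciliated cells, measured 71.9 and 92.5 CPM (0.36, 0.05 to 0.68). Trp73 was the exception, at 49.2 and 41.3 CPM (-0.25, -0.67 to 0.17). Of the dynein assembly factors, which fold the motors before they enter the cilium, Dyx1c1 had the highest ratio of all 67 genes. It measured 19.99 and 40.1 CPM (0.99, 0.45 to 1.59) and missed the 2-fold call only through the 0.5 UMI added. The 8 assembly factors had a median of 0.00. The 18 genes of intraflagellar transport, which carries parts into the cilium, had a median of -0.04, with 7 higher and 11 lower.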

How the data were processed

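The deposited values are raw UMI counts per gene and cell, which the authors made with Cell Ranger 1.3 on mm10 after bcl2fastq, per the submitters' processing notes. Whether the counting used strand is not given in the sources used here. Cells with under 200 genes or over 10% mitochondrial UMIs were left out, and doublets were scored with the scrublet routine of scanpy 1.11.5 and removed at 0.8% per 1000 cells in both libraries (515 and 386 cells). The ciliated gate was kept whatever other gate a cell passed, and every other class needed exactly 1 gate of listed marker genes. Class names are those of the gates. CPM is a gene's UMIs summed over a class and divided by the class total, without further scaling. Intervals are exact (Poisson for levels, Clopper-Pearson for shares, conditional for ratios) at the 95% level. Fold calls needed 20 UMIs in ciliated cells and used 0.5 UMI added to each sum. PCR copies were collapsed by UMI. Full values were given for members with at least 200 UMIs, those under 50% in ciliated cells, those 2-fold apart and those beside the threshold. The members, gene lists, gate thresholds and alternatives were chosen with earlier results of these data known. Positions and transcript lengths are from GENCODE M21 and promoters from RefSeq, both on GRCm38. The fold rule, intervals and thinning were tested on simulated counts with counting error only. Those counts held no spread between cells or mice, so the simulation does not cover it. Alternatives covered cells, gate, depth, scaling and filters. Tools were Python 3.11.15, numpy 2.4.6 and scipy 1.17.1.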

Additional observations from a re-analysis of the deposited data

How the results depend on the processing

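With 1 library per group no replicate could be left out. No paired analysis was possible because the groups share fewer than 2 replicate numbers and no result comes from a test. The summed log2 ratio of 0.014 was -0.11 with all deposited cells, -0.074 without doublet removal, -0.050 with Foxj1 alone as the gate, 0.10 with Ccdc153 and Tmem212 as the gate, -0.096 when all genes were centred, -0.10 with the 50 leading genes left out of the total, and, as alternatives chosen after seeing the data, -0.038 and 0.24 in cells low and rich in Scgb1a1. The median ratio of 0.011 was -0.066, -0.060, -0.054, 0.074, -0.099 and -0.11 under the first 6 of these in that order, 0.086 in ciliated cells that pass no other gate, and 0.16 in the rich kind. Its sign and that of the summed ratio therefore depend on these choices, and neither left the range of -0.11 to 0.24. The count of members at least 2-fold apart (1) was 2 with all deposited cells, 4 with no filter on low counts, 0 with at least 50 UMIs and 2 in the rich kind. The share of member UMIs in ciliated cells was 69.6% and 72.9% with all deposited cells, 72.3% in fibrosis without doublet removal, 70.6% in fibrosis with Ccdc153 and Tmem212 as the gate, 46.4% and 43.5% in ciliated cells that pass no other gate, 68.8% in control with the same lowest UMI total, and 37.8% and 33.4% in the low kind. The median of members per thinned cell was 3 and 2 with Foxj1 alone, 15.5 and 13 at 3000 UMIs, and 25 and 27 without thinning. The count of members with at least 50% of their UMIs in ciliated cells (41) was 4 when only cells low in Scgb1a1 counted as ciliated, since the rich kind holds much of the rest, and it was 36 to 41 under the alternatives of cells, gate, depth and members. The cause of the other changes was not tested. Depth limits single members: with 50 and 93 UMIs, the log2 interval of Cfap61 ran from -0.05 to 0.99.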
